A study of Mus musculus with 12 samples.

Results

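Of the 532 stretches of the mouse genome that all 12 coverage files list, 2 lie inside an interval of 1517 bp on chromosome 6 (mm9), and these 2, taken by position alone, are described here. The interval, which runs from the start of the first to the end of the second, was picked as the place of the Y RNA genes near Pdia4. Only 1 of the 2 stretches bore this out. The stretch that starts at 47731473 (402 bp) holds the Y RNA gene Rny3 (ENSMUSG00000064945.1, 47731623 to 47731724, plus strand, 102 bp). The stretch that ends at 47730858 (501 bp) lies 614 bp before it and is called the upstream stretch. It holds no small RNA gene of the GENCODE vM1 annotation, in which nuclear tRNA genes were not searched for. The second Y RNA gene of the locus, Rny1 (ENSMUSG00000065701.1, 47738068 to 47738179, minus strand, 112 bp), lies outside the interval, in a stretch at chr6:47737918-47738329 that begins 6043 bp further on. It serves as the comparison. All 3 stretches are intergenic. Pdia4, a protein-coding gene for a disulfide isomerase of the endoplasmic reticulum, spans 47746141 to 47763511 on the minus strand. The names Rny3 and Rny1 were taken from the order of neighbours in the RefSeq table of GRCm38.p6, since the mm9 annotation calls both genes Y_RNA.

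Y RNAs are short noncoding RNAs that are bound by the Ro60 protein and fold back on themselves, pairing their ends into a stem. RNA polymerase III (Pol III) transcribes their genes from type 3 promoters, which lie wholly before the gene and carry a proximal sequence element (PSE) and a TATA box. At tRNA genes, by contrast, Pol III is recruited through an A box and a B box inside the gene, and in all these genes a run of T ends transcription.

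The 12 libraries came from chromatin immunoprecipitation with sequencing (ChIP-seq) on livers of male C57/BL6 mice, 12 to 14 weeks old. The mice lived under 12 h of light with feeding at set times for 7 days, and the labels name no genotype other than the strain and no treatment. Livers were collected at Zeitgeber time 2 h from 5 mice and, as a biological replicate, at 26 h from another 5. Which replicate number is which time, and whether mice were pooled, is not stated, so p-values measure the spread between libraries only. The 6 groups of 2 libraries were RPC1 and RPC4 (subunits of Pol III, together the 4 Pol III libraries), RPB2 (part of Pol II, the polymerase that makes mRNA), the H3K4-titled and H3K36-titled histone libraries, and input, which is chromatin without immunoprecipitation. The H3K4-titled libraries have an antibody field that names H3K36me3, and the H3K36-titled libraries one that names H3K4me3, so both are called after their titles. Livers hold several cell types, and more cells with Pol III on a gene cannot be told apart from more Pol III per cell. None of 7 hepatocyte genes looked up (Alb, Apoa1, Apoe, Ttr, Serpina1a, Cyp2e1 and Fabp1) had a stretch within 1000 bp (0 of 7), so the tissue could not be checked in these files.

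The sequences before both Y RNA genes are shown because their promoter elements lie there. Each runs from 150 bases before the gene to its 10th base, on the strand of the gene (NCBIM37, the mm9 genome). Capitals mark a PSE core (ACCNTNA) and TATA letters (TATANA) at the places where type 3 promoters carry them. The genes themselves follow, and then the part of the upstream stretch where Pol III coverage peaked, with capitals for an A box and a B box, some positions of which were free in the search.
Rny3 promoter, chr6:47731473-47731632, plus strand: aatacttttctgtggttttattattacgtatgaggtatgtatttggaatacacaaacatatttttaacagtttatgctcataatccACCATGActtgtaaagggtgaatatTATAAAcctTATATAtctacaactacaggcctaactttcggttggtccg
Rny1 promoter, chr6:47738170-47738329, minus strand: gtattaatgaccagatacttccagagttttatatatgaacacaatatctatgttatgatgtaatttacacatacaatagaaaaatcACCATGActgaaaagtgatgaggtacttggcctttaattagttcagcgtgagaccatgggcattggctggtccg
Rny3 gene, chr6:47731623-47731724, plus strand: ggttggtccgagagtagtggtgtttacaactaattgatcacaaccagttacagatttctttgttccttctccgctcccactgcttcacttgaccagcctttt
Rny1 gene, chr6:47738068-47738179, minus strand: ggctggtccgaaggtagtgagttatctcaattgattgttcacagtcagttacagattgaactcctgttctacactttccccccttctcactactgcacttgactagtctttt
Upstream stretch, chr6:47730606-47730690, minus strand: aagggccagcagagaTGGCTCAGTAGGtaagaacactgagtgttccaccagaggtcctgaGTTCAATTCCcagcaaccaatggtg

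Both promoters had the PSE core on the gene strand, and it began 64 bases before the gene in each. The search covered both strands from 250 bases before to 50 bases after each gene start. The 9 other type 3 genes are those found by annotation in the files, and the selenocysteine tRNA gene, also of type 3, was not searched for. Of the 9, 7 had the PSE core on the gene strand between 80 and 41 bases before the gene. The share among 32817 RefSeq promoters (GRCm38.p6) was 2.52%. The TATA letters began 39 and 30 bases before Rny3, with the match at 30 bases present on both strands. Rny1 had none between 40 and 16 bases before the gene. 5 of the 9 other type 3 genes had them there, as did 3.33% of the RefSeq promoters. An octamer (ATTTGCAT), found in distal elements of type 3 promoters, occurred in neither Y RNA window, while 7 of the 9 others and 1.74% of the RefSeq promoters held one. Over the whole window and both strands, TATANA occurred in 24.7% and ACCNTNA in 32.4% of the RefSeq promoters. These are matches of letters only.

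The Rny3 and Rny1 genes had 81 identical bases in 112 aligned columns (72.3%). The T run near the end began at base 99 of Rny3 and was 4 long, against base 109 and a length of 6 in Rny1, where it runs on past the annotated gene. Of the 30-base words of the Rny3 stretch, 18 of 373 (4.83%) occurred more than once in the genome, at most 4 times. For Rny1 the numbers were 32 of 383 (8.36%), also at most 4 times. No base of the 3 stretches had fractional coverage in any library.

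Pol III occupied Rny3 far more than the upstream stretch in each of the 4 Pol III libraries. Coverage is the number of reads over a base, averaged over the stretch, as deposited. At Rny3 it was 43.7 and 35.99 in the RPC1 libraries and 68.5 and 86.9 in the RPC4 libraries, against 0.363 and 0.495 in input. That is 231, 190, 362 and 460 read equivalents of 76 bp in the Pol III libraries, against 1.92 and 2.62 in input. All 4 Pol III libraries were thus above both input libraries, with a mean of 58.8 ± 23.3 (SD, n = 4) against 0.429 ± 0.0932 (SD, n = 2).

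The upstream stretch had Pol III coverage of 1.17 and 2.12 in the RPC1 libraries and 2.83 and 3.34 in the RPC4 libraries, against 0.363 and 0.455 in input. These are 7.70, 14, 18.7 and 22 read equivalents against 2.39 and 3. Here too the 4 Pol III libraries lay above both input libraries, but by far less. Within a library, Rny3 exceeded the upstream stretch 37.4-fold and 16.9-fold in RPC1, 24.2-fold and 26.05-fold in RPC4, and 1.00-fold and 1.09-fold in input. In input the 2 stretches were thus about level. Among the 532 stretches, Rny3 ranked 160 and 147 from the highest in the RPC1 libraries and 151 and 138 in the RPC4 libraries. The upstream stretch ranked 426, 360, 377 and 375 in the same order.

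**Figure D1:**
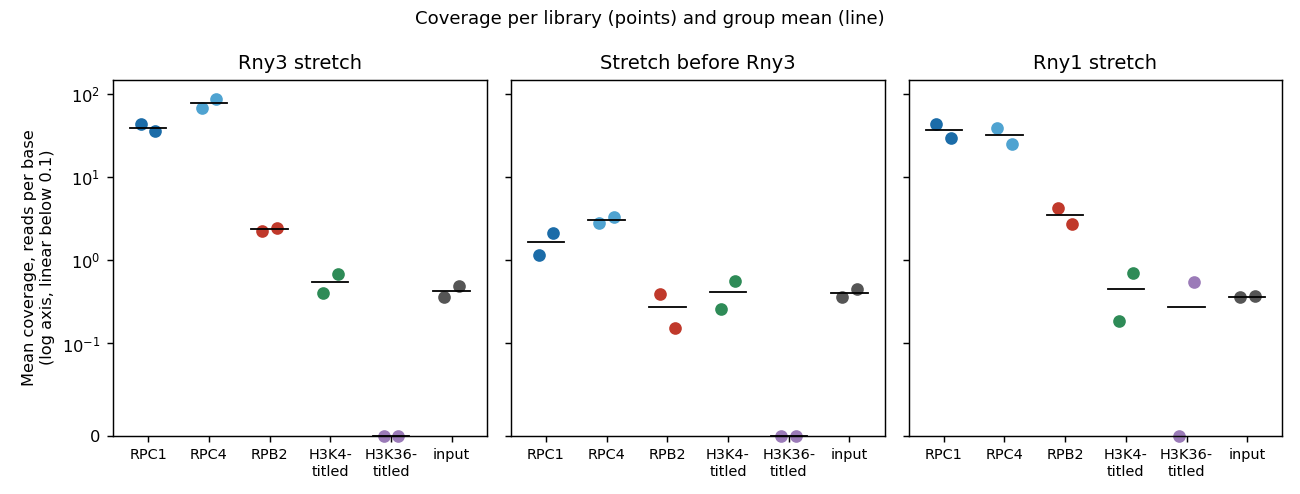
Mean coverage in reads per base (log axis, linear below 0.1) at the Rny3 stretch, the stretch before it and the Rny1 stretch, with a point for each library and a line for each group mean. Pol III (RPC1, RPC4) stood at 35.99 to 86.9 over Rny3 and at 1.17 to 3.34 over the upstream stretch, input stayed between 0.363 and 0.495 in all 3, and both H3K36-titled libraries were at 0 in the first 2 stretches.

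A ratio of neighbouring stretches within a library does not depend on how libraries are scaled, except through the small number (pseudocount) added before taking logs. The log2 coverage of the upstream stretch minus that of Rny3 was tested with limma over all 80 pairs of stretches less than 1000 bp apart. The Pol III difference relative to input was -4.22 on the log2 scale (SE 0.46, adjusted p = 0.00155), that is, lower in the upstream stretch. In this comparison 3.75% of the pairs passed at an adjusted p of 0.05, in either direction.

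Set against input stretch by stretch, the result at Rny3 kept its direction under each scaling, and that of the upstream stretch did not. Scaling by file totals reads a value as a share of what the file holds, and the share is taken over the 532 stretches common to all files. On that scale the log2 fold of Pol III over input at Rny3 was 1.83 (SE 0.29, limma adjusted p = 0.000834), where 19.5% of 478 tested stretches were called above input and 48.3% below. The median log2 fold of those stretches was -1.15. A scaling anchored on the 25% of stretches with the lowest Pol III coverage gave 6.42 at Rny3 (SE 0.33, limma adjusted p = 7.06e-10), at a median of 3.83 and with 74.3% called above. Coverage as deposited gave 6.53, with 75.7% called above and 0.209% below. On these 2 scales most stretches were above input, so the call at Rny3 was shared with most stretches.

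The upstream stretch had a log2 fold of -2.39 with file totals (SE 0.56, limma adjusted p = 0.00598), but of 1.97 with the anchored scaling (SE 0.53, limma adjusted p = 0.00392) and 2.04 with coverage as deposited (adjusted p = 0.0015). It was therefore a smaller share of the Pol III files than of the input files, at more reads per base. On each of the 3 scales it was below the median of all tested stretches.

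Rny1 had less Pol III coverage than Rny3 in 3 of 4 libraries, and a difference in this between the 2 subunits was not called by limma (below). Rny1 coverage was 44.6 and 29.7 in the RPC1 libraries and 39.8 and 25.1 in the RPC4 libraries, against 0.367 and 0.369 in input. The ratio of Rny3 to Rny1 was 0.980 and 1.21 in RPC1, 1.72 and 3.46 in RPC4, and 0.991 and 1.34 in input. RPC4 ratios were thus above RPC1 ratios, while the RPC1 and input ratios overlapped. Over 240 pairs of neighbouring stretches up to 10000 bp apart, of which 10% passed, the Pol III difference between Rny3 and Rny1 relative to input was 0.50 (SE 1.54, limma adjusted p = 0.988). In the 150 bp around each summit it was 3.29 (SE 1.22, limma adjusted p = 0.201). Input replicate 2 had 0 reads in that window at Rny3, so the pseudocount stands for it there. The same windows gave 2.53 for the H3K36-titled libraries, which had 0 reads at Rny3, so the size of 3.29 cannot be read as Pol III alone. The SE over whole stretches also covers the H3K36-titled libraries, which had 0 and 3 reads at Rny1 and enter the shared estimate of spread.

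A difference between the 2 subunits at Rny3 was not called by limma, in a fit whose spread comes from all 12 libraries. With file totals RPC1 minus RPC4 was -0.28 at Rny3 (SE 0.34, limma adjusted p = 1.00), -0.19 at the upstream stretch (SE 0.64) and 0.86 at Rny1 (SE 1.63). limma called 0 of 478 stretches (0%) in this comparison, and 3 had an unadjusted p under 0.05. As a description, RPC4 over RPC1 coverage was 1.95 at Rny3 and 0.874 at Rny1, while the 9 other type 3 genes ran from 1.12 to 2.15 with a median of 1.49. On file totals, 80.8% of the tested stretches had a lower RPC4 to RPC1 ratio than Rny3, and 1.88% a lower one than Rny1. The difference between Rny3 and Rny1 in RPC1 relative to RPC4, tested over the same 240 pairs, was -1.14 (SE 1.78, limma adjusted p = 1). None of those pairs was called (0%).

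Along Rny3, Pol III coverage lay over the gene and reached well past its end, with little before it. The coverage-weighted centre, counted from the first base of the gene, was 69.0 and 59.4 bp in the RPC1 libraries and 74.5 and 82.0 bp in the RPC4 libraries, against 116 and 219 bp in input. All 4 Pol III centres were inside the 102 bp gene and before both input centres. The mean was 71.2 ± 9.53 bp (SD, n = 4) in Pol III against 168 ± 73.2 bp (SD, n = 2) in input, a difference of -96.4 bp. The exact two-sided permutation test gave p = 0.0667, the smallest that 4 against 2 libraries allow. Both input centres rest on fewer than 3 read equivalents. Summits lay at 74, 29, 90 and 81 bp in the Pol III libraries.

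Shares of the coverage tell the same in other terms. Before Rny3 lay 17.6% and 20.4% of the coverage in RPC1 and 16.2% and 13.9% in RPC4. Over the gene lay 48.5% and 51.6% in RPC1 and 46.3% and 46.1% in RPC4. After the gene lay 33.9% and 28.02% in RPC1 and 37.5% and 40.02% in RPC4. The RPC4 centres were both further along the gene than the RPC1 centres, but 2 libraries against 2 cannot give an exact two-sided p below 0.333.

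At Rny1 a larger share of the coverage lay before the gene than at Rny3, and a smaller share after it. Centres at Rny1 were 9.08 and 10.5 bp in RPC1 and 9.58 and 40.3 bp in RPC4. Before the gene lay 44.4%, 45.4%, 44.8% and 28.6% of the coverage in these libraries, and after it 7.43%, 8.07%, 8.44% and 18.4%. In each of the 4 Pol III libraries the centre at Rny3 was further along the gene than that at Rny1, by 59.9, 48.9, 64.9 and 41.8 bp. The mean difference was 53.9 ± 10.5 bp (SD, n = 4), with an exact sign-flip test p = 0.125, the smallest that 4 pairs allow. The fourth library, RPC4 replicate 2, stood apart at Rny1 but not at Rny3, and without it the mean difference was 57.9 ± 8.19 bp (SD, n = 3).

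**Figure D2:**
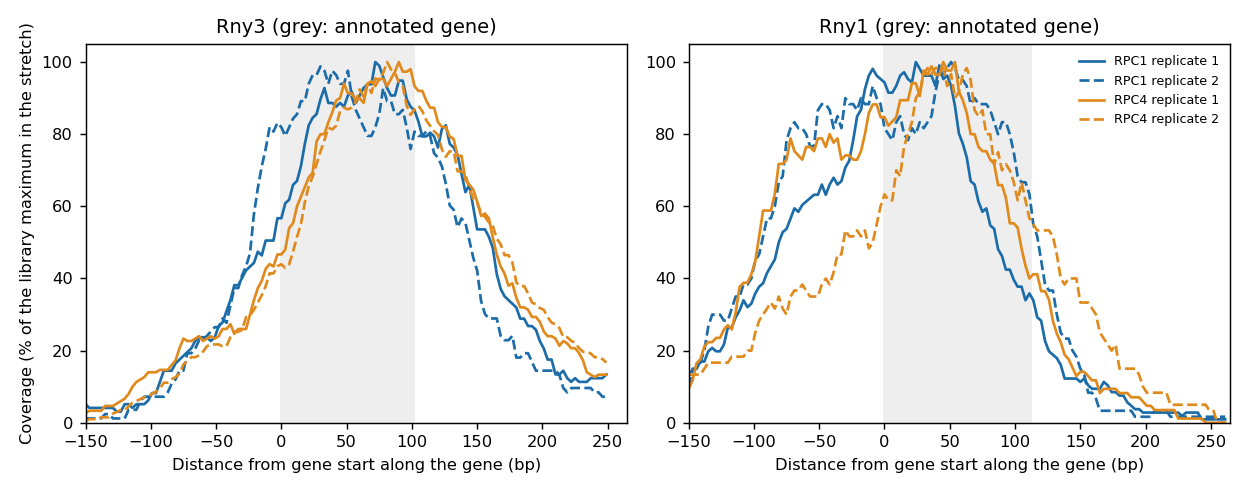
Pol III coverage along Rny3 and Rny1 as a percentage of each library's maximum in the stretch, against the distance from the gene start along the gene in bp, with a line for each of the 4 RPC1 and RPC4 libraries and the annotated gene in grey. Coverage at Rny3 extends past the gene (28.02% to 40.02% of it lies after the gene) and that at Rny1 before it (28.6% to 45.4%), with RPC4 replicate 2 as the lowest line before Rny1.

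In the upstream stretch the few Pol III reads formed a peak that was deepest in RPC4 replicate 2 and shallowest in RPC1 replicate 1. The first 150 bp held 28.4% and 12.4% of the coverage in the RPC1 libraries and 20.1% and 6.58% in the RPC4 libraries. Whether reads lay evenly along the stretch was not tested. Summits were at 144 and 177 bp in RPC1 and 155.5 and 154 bp in RPC4, counted from the base 150 bp into the stretch. The A box on the minus strand spans 156 to 167 bp in the same count (47730664 to 47730675), and the B box 113 to 122 bp (47730621 to 47730630). By the letters searched for, an A box and a B box on the same strand within 100 bp occurred in 18 of the 532 stretches (3.38%). A B box on either strand occurred in 375 (70.5%). Nuclear tRNA genes were not searched for, so how many true A boxes these letters miss was not tested. The 3.38% therefore cannot tell whether such a pair is rare among the stretches. No PSE core occurred in the upstream stretch.

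Maximum coverage in this peak was 4 and 8 in RPC1 and 9 and 18 in RPC4, against 1 and 2 in input. The Pol III centre, 121 ± 28.8 bp (SD, n = 4) against 174 ± 51.6 bp in input (SD, n = 2), did not separate the groups (exact two-sided permutation p = 0.267). By the summit measure both input values, at 189.5 and 182.5 bp, lay past all 4 Pol III summits. Means were 158 ± 13.9 bp (SD, n = 4) in Pol III and 186 ± 4.95 bp (SD, n = 2) in input. That difference of -28.4 bp had an exact two-sided permutation p = 0.0667, the smallest possible. Input maxima were only 1 and 2 reads deep. In input replicate 1 separate places along the stretch tied at 1 read, and 189.5 bp is the middle of those bases, not a peak. The summits therefore cannot decide whether the groups differ in position. The stretch shares sequence with other places in the genome. 97 of its 472 words of 30 bases (20.6%) occurred more than once, all of them between 47730522 and 47730647, and the most common occurred 8888 times. The part played by reads from other copies was not tested, and repeat annotation was not used here. The B box lies inside this repeated part and inside the word found 8888 times, which starts at 47730612. The A box and the summits at 144 bp and beyond lie past its last base, at 139 bp in the same count. Reads of 76 bp around them still reach into the repeated part. Only exact matches of 30 bases were counted, so whether copies with mismatches extend past 139 bp was not tested.

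**Figure D3:**
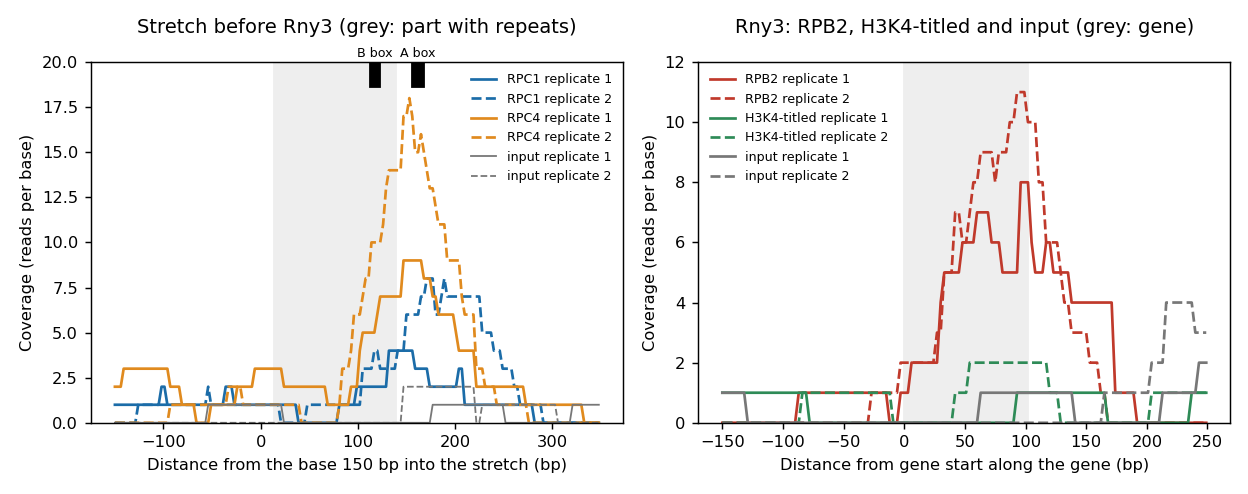
Coverage in reads per base along the upstream stretch (left, 4 Pol III and 2 input libraries, with the A and B boxes as black bars and the part with repeated words in grey) and along Rny3 (right, RPB2, H3K4-titled and input libraries, with the gene in grey), both against distance in bp. The upstream peak reached 18 in RPC4 replicate 2 against at most 2 in input, and RPB2 over Rny3 reached 8 and 11.

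RPB2 coverage at Rny3 was low but above input as deposited, and it was centred inside the gene like that of Pol III. Among the 532 stretches, Rny3 ranked 227 and 224 from the highest in the RPB2 libraries. That is 1.36 and 1.25 times the median stretch, so such coverage was common in these files. RPB2 coverage was 2.27 and 2.46, against 0.363 and 0.495 in input, which is 12 and 13 read equivalents against 1.92 and 2.62. Both RPB2 libraries were thus above both input libraries, with a mean of 2.36 ± 0.134 against 0.429 ± 0.0932 (SD, n = 2 each). Centres were at 80 and 81.0 bp from the gene start, within the range of the Pol III centres (59.4 to 82.0 bp), and summits at 99.5 and 96 bp, past the Pol III summits. At the upstream stretch RPB2 had 0.391 and 0.152 against 0.363 and 0.455 in input, so the groups overlapped there. Rny1 had RPB2 coverage of 4.30 and 2.73 against 0.367 and 0.369 in input, both above input.

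Whether RPB2 at Rny3 passed the test depended on the scaling. With file totals the log2 fold over input was 0.41 (SE 0.34, limma adjusted p = 0.352), where 6.49% of the stretches were called above and 28.7% below. It was 2.25 with the anchored scaling (SE 0.39, limma adjusted p = 0.000337), where 42.9% were called above and 0.209% below, and 2.08 with coverage as deposited (limma adjusted p = 0.000501), where 39.5% were called above and 0.418% below. At the upstream stretch it was -2.43 with file totals (limma adjusted p = 0.0233), -0.14 with the anchored scaling (limma adjusted p = 0.91) and -0.44 with coverage as deposited (limma adjusted p = 0.61).

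Within libraries, the upstream stretch minus Rny3 had an RPB2 difference of -2.85 relative to input (SE 0.53). It missed the threshold at a limma adjusted p of 0.0515, and 0 of 80 pairs passed (0%). It passed with coverage as deposited (-2.52, limma adjusted p = 0.0277) and with the pseudocount doubled (-2.58, limma adjusted p = 0.0341). The H3K4-titled difference was -0.30 (SE 0.53, limma adjusted p = 0.808), with 0 of 80 pairs called (0%). The H3K36-titled difference was 0.06 (SE 0.53, limma adjusted p = 0.927), where 7.50% of the pairs were called and both libraries were at 0 on both stretches. Between Rny3 and Rny1, over the 240 pairs, the RPB2 difference was -0.72 (SE 1.78, limma adjusted p = 0.992), where 2.50% were called. The H3K4-titled one was 0.21 (SE 1.78, limma adjusted p = 0.955), where 12.1% were called. The H3K36-titled one was -3.38 (SE 1.78, limma adjusted p = 0.33), where 7.92% were called, and it rested on 1 library: without H3K36-titled replicate 1 it was -6.64 (limma adjusted p = 0.000478) and without replicate 2 it was -0.20.

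The histone-titled libraries had few reads on both stretches. H3K4-titled coverage at Rny3 was 0.405 and 0.692 against 0.363 and 0.495 in input, and at the upstream stretch 0.263 and 0.565 against 0.363 and 0.455. H3K4-titled and input values overlapped in both. Its log2 fold over input changed sign with the scaling at Rny3, at -2.08 with file totals (SE 0.34, limma adjusted p = 0.000961), 2.90 with the anchored scaling (SE 0.39, limma adjusted p = 9.07e-06) and 0.24 as deposited (SE 0.44, limma adjusted p = 0.626). The calls were 11.9% above and 54.8% below with file totals, and 67.8% above and 4.81% below with the anchored scaling. The upstream stretch gave -2.39, 2.51 and -0.03 in the same order, so no direction can be given for either stretch.

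The H3K36-titled libraries had 0 reads on both stretches. A count of 0 allows up to 3 reads, or a coverage of 0.567 at Rny3 and 0.455 at the upstream stretch, which is not below the input values, so no difference from input was detectable at this depth. This limit covers counting error only. limma gave a log2 fold of -4.59 at Rny3 with file totals (adjusted p = 1.72e-05), in which the pseudocount stands for the 0, and 20.5% of the stretches were called below and 3.77% above. It gave -1.27 with the anchored scaling, where 9.21% were called below and 3.14% above, and -1.78 as deposited, where 67.4% and 2.51% were.

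Among the 11 type 3 genes found by annotation in the files, Rny3 stood below 4 in mean Pol III coverage, and 3 had less H3K4-titled coverage. In order, mean Pol III coverage was 136 ± 59.0 at U6atac, 92.6 ± 24.4 at the RNase MRP RNA gene, 89.7 ± 21.1 at 7SK, 61.4 ± 11.7 at a U6 gene on chromosome 12 and 58.8 ± 23.3 at Rny3 (SD, n = 4 each). Next came U6 genes on chromosomes 10 and 12 with 40.3 ± 10.5 and 35.8 ± 8.11, and Rny1 with 34.8 ± 8.96. The RNA gene by Parp2 and a U6 gene each on chromosomes 10 and 9 had 10.8, 9.26 and 7.52. Genes next to each other in this order differed by less than the larger of their SDs from U6atac down to 7SK and from the first U6 gene through Rny3 down to Rny1. The gaps after 7SK and after Rny1 were larger than that. These SDs also hold the differences in subunit and depth between the 4 libraries, so they do not measure how certain the order is. Rny3 was below the first U6 gene on chromosome 12 in RPC1 (39.8 against 57.8) but above it in RPC4 (77.7 against 65.0). All are means per base over a gene and its flanks of about 150 bp. Fractional coverage occurred at 7 of the 11 genes, namely 7SK, RNase MRP RNA and the 5 U6 genes, and at none of the other 4, so reads there may add less than 1 and their place in this order is less certain.

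H3K4-titled coverage was 0.549 ± 0.202 at Rny3 and 0.447 ± 0.371 at Rny1 (SD, n = 2 each), whereas 6 of the 9 other type 3 genes had more than 2, up to 21.3 at the gene by Parp2. The other 3, 7SK (0.207), U6atac (0.350) and a U6 gene on chromosome 10, had less than 1. RPB2 coverage was 4.02% of Pol III coverage at Rny3 and 10.1% at Rny1, and 3.44% to 119% at the others with a median of 8.50%. Measured from the middle of the gene, the Pol III centre was at 20.2 bp after it for Rny3 and at -38.6 bp, before it, for Rny1. The others ran from -63.0 to 27.1 bp with a median of -13.2, and 2 of 9 were after the middle.

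**Figure D4:**
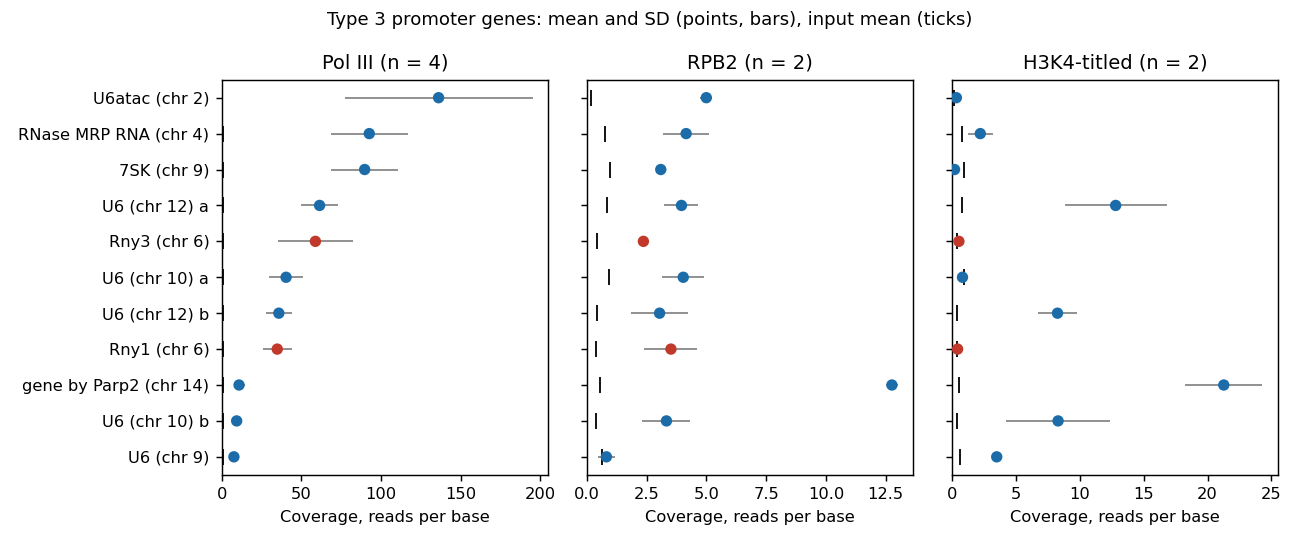
Mean coverage in reads per base with SD for Pol III (n = 4), RPB2 (n = 2) and H3K4-titled libraries (n = 2) at the 11 type 3 promoter genes, ordered by Pol III from the top, with the mean of the 2 input libraries as ticks and the Y RNA genes in red. Rny3 stands below 4 others by mean Pol III coverage, at 58.8. Both Y RNA genes sit beside their input ticks for H3K4-titled coverage (0.549 and 0.447).

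The stretches most like Rny3 over the 12 libraries, by the mean absolute difference of log2 scaled coverage, lay at chr19:12076576-12076948 (0.465), chr11:97658236-97658607 (0.485) and chr13:22107510-22107882 (0.492). None holds a small RNA gene of the annotation, but nuclear tRNA genes were not part of that search. Pol III coverage of these stretches was 50.9, 71.9 and 56.2, and RPB2 coverage 2.04, 2.27 and 1.53. The stretches most like the upstream stretch lay at chr13:22121819-22122192 (0.680), chr6:48172943-48173314 (0.780) and chr13:22003032-22003403 (0.787). Pol III coverage there was 1.46, 0.913 and 2.26, and the same search found no small RNA gene in them. Read equivalents over all 532 stretches were 115660 and 82276 for RPC1, 151907 and 160705 for RPC4, 14779 and 13848 for RPB2, 17033 and 26665 for the H3K4-titled, 1754 and 1273 for the H3K36-titled and 3563 and 3365 for the input libraries. Reads outside the stretches are not in the files used here, so full depths are unknown.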

How the data were processed

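ChIP-seq coverage of 12 mouse liver libraries was used as the authors deposited it: a signal per base, in which a lone read adds 1 over 76 bp where values are whole, with no depth scaling visible there. In 308 of the 532 stretches, Rny3, Rny1 and the upstream stretch not among them, some base has a fractional value in at least 1 library, and reads there add less than 1. A further stretch on chromosome X, listed in 5 files only and with differing ends, was left out. The build was mm9, per the submitters' processing notes. Not given in the sources used here are the aligner, read filters and treatment of reads with several matches. Fragments were about 250 bp and libraries had 15 PCR cycles, per the labels' protocols, so reads are not independent molecules.

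Mean coverage per stretch was scaled by file total and tested as log2(scaled coverage + 0.0900) with limma 3.58.1 in R 4.3.3 (mean-variance trend, all 12 libraries, 6 residual degrees of freedom, two-sided, Benjamini-Hochberg at 0.05). The pseudocount is the 0.05 quantile of nonzero values (0.157 with the anchored scaling) and shrinks fold changes of low stretches. Stretches under the 0.1 quantile of mean deposited coverage were left out, which kept 478 of 532. This reading of the filter was taken after seeing that a filter on scaled coverage would leave out the upstream stretch. A second fit took differences within a library between neighbouring stretches, and its extension to gaps of 10000 bp was added after seeing the data. The anchored scaling divides by a trimmed mean (trim 0.1) of low Pol III stretches, and so uses Pol III itself. Positions were tested by exact permutation.

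Simulated data were run through the fit of neighbouring pairs with file totals, and through the stretch fit with an alternative, median-of-ratios scaling. The stretch fit with file totals was not run on them. Genes were named by a rule: the stretches in the interval, their RNA genes, Pdia4, type 3 promoter genes, and the 3 stretches most like each. The interval, lists and tests were chosen with earlier results of these data known. Sequences came from NCBIM37, motif backgrounds from RefSeq (GRCm38.p6), whose promoter table was matched to neither Y RNA gene. Python 3 scripts used Biopython for alignment. Alternatives were other scalings, pseudocounts, filters, samples, windows, merged regions, a replicate block and leaving out each library.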

Additional observations from a re-analysis of the deposited data

Results flagged for a closer look

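Of 20 sets of 4 Pol III values looked at for a lone distant value, 3 had one, and all 3 were RPC4 replicate 2 at Rny1. By chance about 1 in 20 such sets would have one, and these 3 describe the same coverage. Its centre at Rny1 was 40.3 bp from the gene start, against 9.08 to 10.5 bp in the other 3 libraries. It had 28.6% of its coverage before the gene, against 44.4% to 45.4%, and 18.4% after it, against 7.43% to 8.44%. Without this library the centre at Rny1 was 9.72 ± 0.712 bp and the share before the gene 44.9% ± 0.497 (SD, n = 3). The same library held 136 read equivalents at Rny1, the lowest of the 4, and 460 at Rny3, the highest of the 4. No set at Rny3 or the upstream stretch had such a value.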

How the results depend on the processing

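Of 155 repeats, by limma, of the comparisons at Rny3 and the upstream stretch and of the Pol III neighbour ratio, 129 kept their direction and side of the threshold. The 16 repeats of the position are not counted, since too few libraries enter them to reach 0.05. Pol III over input at Rny3 kept both in all 17 alternatives (0.76 to 6.53), and so did the neighbour ratio in all 14 (-6.72 to -3.94). The position at Rny3 kept its direction (-168 to -44.7 bp, with -44.7 bp without input replicate 2 and -148 bp without input replicate 1). Repeats that leave 1 library in a group assume that it varies like the others. The cause of the changes below was not tested.

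With the anchored scaling, Pol III at the upstream stretch became 1.97, RPB2 2.25 at Rny3 and -0.14 at the upstream stretch, H3K4-titled 2.90 and 2.51, and H3K36-titled -1.23 at the upstream stretch. As deposited the values were 2.04 for Pol III at the upstream stretch, 2.08 and -0.44 for RPB2 and 0.24 and -0.032 for H3K4-titled. Median-of-ratios scaling gave -1.23 for Pol III and -1.44 for RPB2 at the upstream stretch and -0.49 and -0.82 for H3K4-titled. In the 150 bp around the Pol III summit, RPB2 at the upstream stretch was -1.90, H3K4-titled 0.76 at Rny3 and -2.17 at the upstream stretch, H3K36-titled -2.33 at Rny3. There RPC1 minus RPC4 for the neighbour ratio was -0.13, H3K36-titled -2.62, and for Rny3 minus Rny1 Pol III was 3.29, RPB2 2.62, H3K4-titled 2.35 and H3K36-titled 2.53. Input replicate 2 had 0 reads in the summit window of Rny3, so values against input that use this window rest in part on the pseudocount. The RPB2 neighbour ratio passed as deposited (-2.52) and with the pseudocount doubled (-2.58). Merging neighbours into regions gave -0.45 for RPB2 in the region that joins the upstream stretch to Rny3.

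Leaving out 1 library gave, at the upstream stretch, RPC1 minus RPC4 of -0.69 to 0.31 (positive without RPC1 replicate 1), RPB2 of -2.94 to -1.96 (no longer called without any one library) and H3K4-titled of -2.60 to -2.21 (not called without H3K4-titled replicate 1). For the neighbour ratio it gave RPC1 minus RPC4 of -0.31 to 0.48 and H3K36-titled of -0.00034 to 0.12, and for Rny3 minus Rny1 H3K4-titled of -0.23 to 0.65 and H3K36-titled of -6.64 (called, without H3K36-titled replicate 1) to -0.20.

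Counts of calls moved with the scaling. Pol III calls were 93 above and 231 below with file totals, 355 and 0 anchored, 362 and 1 as deposited, 147 and 148 with median of ratios, and 153 above when only Pol III and input libraries were fitted. For RPB2 they were 31 and 137, then 205 and 1 anchored, 189 and 2 as deposited, 11 below with median of ratios, 57 above with only 2 groups fitted, 80 below around the summit, and 16 to 37 above and 32 to 119 below without 1 library. H3K4-titled calls were 57 and 262, then 324 and 23, 184 and 125, and 122 and 140 on those 3 scales, 163 below around the summit and 33 to 51 above without 1 library. H3K36-titled calls were 18 and 98, then 44 below anchored, 322 below as deposited, 33 and 51 with median of ratios, 9 and 0 with 2 groups, 165 below around the summit and 63 to 182 below without 1 library. RPC1 against RPC4 gave 0 calls, and 23 and 24 with only those groups fitted.

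Replicate numbers did not pair the libraries: deviations from group means correlated at -0.131 to 0.114 over 15 pairs of groups, with 1 over 0.1. With the replicate block, Pol III at Rny3 stayed at 1.83 (limma adjusted p = 0.0017) and calls were 94 above and 226 below. A filter on scaled coverage left the upstream stretch untested. With 1.92 to 3 read equivalents in input and 0 in the H3K36-titled libraries, depth limits each fold printed for these stretches.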
